A study of Mus musculus with 8 samples.

Results

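The ephrin, Slit-Robo and netrin guidance genes were examined in cells sorted by protease activity from tumor-bearing mouse lungs. Members were taken by gene symbol, with no measured value in the rule: every row of the count table whose symbol named an EphA or EphB receptor, an A-class or B-class ephrin, a Slit, a Robo, an Unc5 receptor or a netrin. This gave 37 of 27179 rows, made up of 9 EphA receptors, 5 EphB receptors, 5 A-class ephrins, 3 B-class ephrins, 3 Slits, 4 Robo receptors, 4 netrins and 4 Unc5 receptors. The families were put forward with earlier results of the same comparison known, so their counts are a description. All libraries came from lungs of C57BL/6 mice (C57BL/6J in the study's methods) with a rearrangement of Eml4 and Alk, labelled a translocation and made in the lung by an adenovirus carrying Cas9 and guide RNAs, so that tumor cells and unedited lung cells lay side by side. The mice were 18 to 22 weeks old, 11 to 12 weeks past tumor induction, and had received 4.5 nmol of QZ1-(PEG2K) by vein 2 h before the lungs were taken. QZ1 is a quenched peptide probe whose Cy5 dye lights up and binds nearby cells once a protease cuts its linker. Live cells without the blood cell proteins CD45 and CD11b were sorted into a QZ1-hi and a QZ1-lo population, with 4 bulk RNA-seq libraries of each. Both populations came from probe-injected tumor-bearing lungs, neither was restricted to 1 cell type, and the sources used here do not say which libraries share a mouse. Total counts were between 18380918 and 26847938 per library, and the guidance genes together held between 7650 and 15423 of them. Mitochondrial ribosomal RNA took 39.5% to 58.4% of the counts in the QZ1-hi libraries and 30.2% to 47.3% in the QZ1-lo libraries.

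These families were first known for steering growing axons, and the same signals shape vessels and epithelia. Eph receptors are receptor tyrosine kinases bound by ephrins on neighboring cells. A-class ephrins are held to the membrane by a lipid anchor and B-class ephrins cross it, so that signals can run into both cells of a contact. In blood vessels, ephrin-B2 marks arteries and EphB4 marks veins. Slits are large secreted proteins that bind Robo receptors, and Robo4 is the endothelial member of that family. Netrins are secreted relatives of laminin chains, and Unc5 receptors carry their repulsive signal, with Unc5b found in the tips of sprouting vessels.

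Of the 37 guidance genes, 13 were higher and 3 were lower in the QZ1-hi population at an adjusted p under 0.05 (edgeR's quasi-likelihood test, Benjamini-Hochberg adjustment over 15583 genes), 12 were tested without a call and 9 had too few counts to be tested. Over all genes tested, 9.88% were called higher and 8.21% lower. Every library of one population lay apart from every library of the other for 13 guidance genes, 11 higher and 2 lower, against 22.6% of all genes tested. The genes called higher were Epha3, Ephb4, Ephb6, Efnb1, Efnb2, Slit2, Slit3, Robo1, Robo2, Robo4, Ntn1, Unc5b and Unc5c, and the genes called lower were Epha2, Epha4 and Ephb3. The median log2 fold change of the 28 tested members was 1.16, beside 0.02 for all genes tested. But a gene of low counts passed the filter through the population in which it was higher, as Epha3 did through QZ1-hi. With scaling by library size only, which moved the median of all genes by -0.47, the calls were 10 higher and 4 lower. Levels below are in CPM, the counts of a gene relative to the total of its library after scaling by edgeR's TMM factors. A positive log2 fold change means a higher level in QZ1-hi. Libraries are listed by replicate number. In the labels the library numbers alternate between QZ1-hi and QZ1-lo, and neighbors in that series were given the same replicate number. A fit with these neighbors as blocks, added after the data were seen, called 14 guidance genes higher and 4 lower, 15 of them among the 16 called without blocks. In bulk RNA, fewer cells of a type and less RNA per cell cannot be told apart.

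**Figure D1:**
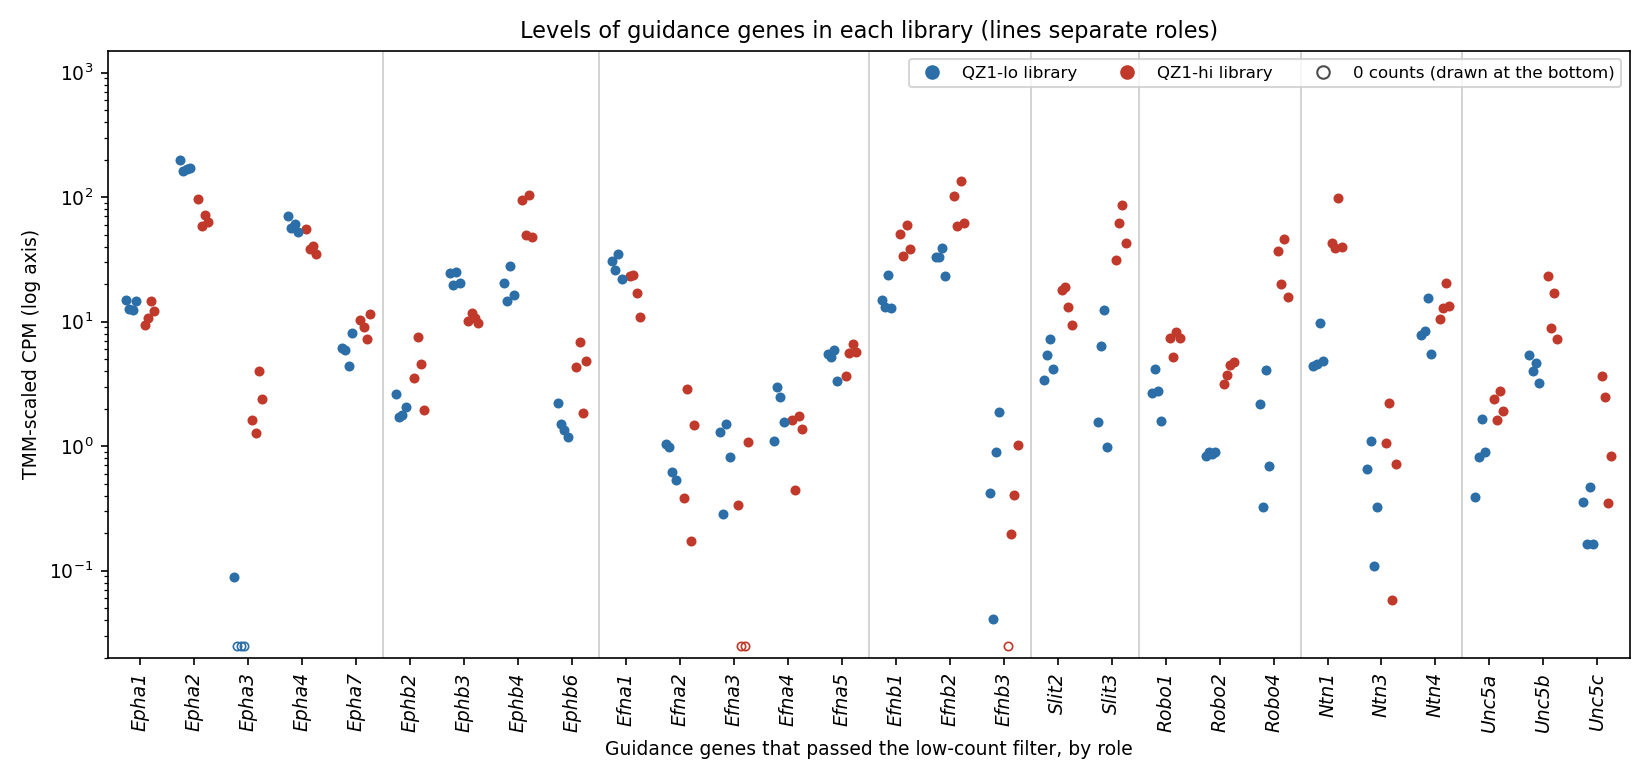
TMM-scaled CPM on a log axis for the 28 guidance genes that passed the low-count filter, with one point per library, QZ1-lo in blue and QZ1-hi in red, and open points for libraries with 0 counts. The 4 QZ1-hi points lie above all QZ1-lo points for Ephb4, Efnb1, Efnb2, Slit2, Slit3, Robo1, Robo2, Robo4, Ntn1, Unc5b and Epha3, and below them for Epha2 and Ephb3.

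Among the 9 EphA receptors, Epha2 and Epha4 were called lower and Epha3 higher. Epha2 encodes a receptor common on epithelial cells, and lies at chr4:141301221-141329384 (GRCm38.p6, plus strand). It had 96.7, 58.4, 72.4 and 63.8 CPM in the QZ1-hi libraries and 199, 163, 168 and 170 CPM in the QZ1-lo libraries. Every QZ1-hi library was below every QZ1-lo library, and the log2 fold change was -1.27 (edgeR, SE 0.16, adjusted p = 0.000527). Epha4, which binds ephrins of both classes, had 55.3, 38.2, 40.8 and 35.0 CPM in QZ1-hi and 71.0, 56.2, 61.3 and 52.8 CPM in QZ1-lo. Its populations overlapped, since QZ1-hi replicate 1 was above QZ1-lo replicate 4, and the log2 fold change was -0.51 (edgeR, SE 0.16, adjusted p = 0.0479). The call was lost when any library other than QZ1-hi replicate 1 was left out, with log2 fold changes of -0.57 to -0.40 and adjusted p from 0.0510 to 0.139. Epha3, a receptor of mesenchymal cells, lies at chr16:63543532-63864175 on the minus strand. It was counted 38, 26, 69 and 40 times in the QZ1-hi libraries, and 3, 0, 0 and 0 times in the QZ1-lo libraries (adjusted p = 0.00153, edgeR). Epha3 passed the low-count filter through its QZ1-hi libraries alone. A gene this low in QZ1-lo could be tested only if it was higher in QZ1-hi, so its call is a description. Summed over each population and scaled, this was a ratio of 81.5, with a 95% exact interval of 27.4 to 399 that covers counting error only. Its fitted log2 fold change of 6.22 depends on the small count that edgeR adds to libraries near 0.

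The other EphA receptors did not pass the test or had almost no counts. Epha1 had a mean of 11.7 CPM in QZ1-hi (SD 2.24, n = 4) against 13.7 CPM in QZ1-lo (SD 1.34, n = 4), with a log2 fold change of -0.23 (edgeR, SE 0.18, adjusted p = 0.465). Exons of Epha1 overlap Zyx on the opposite strand over 6.01% of their length, and the strand setting of the counting is not given in the sources used here. Epha7 averaged 9.50 CPM (SD 1.81, n = 4) against 6.13 CPM (SD 1.51, n = 4), at a log2 fold change of 0.63 (edgeR, SE 0.24, adjusted p = 0.101; 0.0492 with blocks). Epha5 was counted 2 times in each population. Epha6, Epha8 and Epha10 had 0 counts in all 8 libraries, which at a floor of 3 counts over a population allows a level of up to 0.0385 CPM in QZ1-hi and 0.0272 CPM in QZ1-lo.

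The EphB receptors split, with Ephb4 and Ephb6 higher and Ephb3 lower. Ephb4, the receptor of venous endothelium, lies at chr5:137350109-137374522 on the plus strand. It had 94.5, 50.1, 103 and 48.1 CPM in QZ1-hi and 20.4, 14.7, 28.0 and 16.4 CPM in QZ1-lo. The populations did not overlap, with QZ1-hi replicates 1 and 3 about level with each other and above replicates 2 and 4, and the log2 fold change was 1.90 (edgeR, SE 0.29, adjusted p = 0.00116). Ephb3, known from epithelial crypts and boundaries, had 10.1, 11.8, 10.8 and 9.83 CPM in QZ1-hi and 24.4, 19.6, 25.2 and 20.4 CPM in QZ1-lo. Its populations were also apart, with a narrow spread in each, and the log2 fold change was -1.08 (edgeR, SE 0.15, adjusted p = 0.000845). Ephb6, a receptor whose kinase domain is inactive, had 4.32, 6.91, 1.85 and 4.83 CPM in QZ1-hi and 2.21, 1.51, 1.34 and 1.19 CPM in QZ1-lo. QZ1-hi replicate 3 lay within the QZ1-lo range, and the log2 fold change was 1.52 (edgeR, SE 0.43, adjusted p = 0.0315). Ephb6 lost its call in 6 of 8 fits with one library removed (log2 fold changes of 1.21 to 1.53, adjusted p from 0.0610 to 0.116), all but those without QZ1-hi replicate 3 or QZ1-lo replicate 1. Scaling by library size only also ended the call (adjusted p = 0.153, edgeR), as did limma-voom (adjusted p = 0.0555). Ephb2 had a mean of 4.39 CPM in QZ1-hi (SD 2.34, n = 4) against 2.04 CPM in QZ1-lo (SD 0.417, n = 4), which did not pass (log2 fold change 1.10, SE 0.42, adjusted p = 0.0978, edgeR). Without QZ1-hi replicate 4 it did, at 1.38 (adjusted p = 0.0334). Ephb1 was counted 24, 8, 46 and 5 times in QZ1-hi and 0, 1, 4 and 13 times in QZ1-lo, and was not tested.

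The bases before the start of 4 genes are shown because these genes carry the split within the Eph-ephrin system: the EphB4 and ephrin-B2 pair that rose, Epha3, with 173 counts in QZ1-hi and 3 in QZ1-lo, and Epha2, with the steepest fall among the members called. Each is the 250 bases upstream of the RefSeq start in GRCm38.p6, 5′ to 3′ on the strand of the gene, at chr5:137349859-137350108 (plus) for Ephb4, chr8:8661243-8661492 (minus) for Efnb2, chr16:63864176-63864425 (minus) for Epha3 and chr4:141300971-141301220 (plus) for Epha2. Capitals mark a match on either strand to any of 6 motifs, and matches that touch run together. The promoter elements searched were the GC box, spelled GGGCGG, and the TATA box, spelled TATAAA. For ETS factors the core and its flank were searched as CCGGAAG. The GATA factors were given the letters AGATAA. AP-1, the Fos and Jun dimer, was given the letters TGAGTCA. TEAD factors, the partners of Yap, were given the letters GGAATG.
Ephb4: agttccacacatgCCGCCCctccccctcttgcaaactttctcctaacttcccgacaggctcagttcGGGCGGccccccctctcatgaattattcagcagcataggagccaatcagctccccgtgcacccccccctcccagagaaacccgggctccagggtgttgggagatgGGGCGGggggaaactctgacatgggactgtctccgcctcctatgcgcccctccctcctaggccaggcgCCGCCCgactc
Efnb2: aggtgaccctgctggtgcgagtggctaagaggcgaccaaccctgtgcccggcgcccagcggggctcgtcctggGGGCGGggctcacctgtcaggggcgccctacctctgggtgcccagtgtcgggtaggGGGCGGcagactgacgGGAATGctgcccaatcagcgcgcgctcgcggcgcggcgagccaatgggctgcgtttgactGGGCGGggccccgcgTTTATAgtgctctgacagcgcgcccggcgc
Epha3: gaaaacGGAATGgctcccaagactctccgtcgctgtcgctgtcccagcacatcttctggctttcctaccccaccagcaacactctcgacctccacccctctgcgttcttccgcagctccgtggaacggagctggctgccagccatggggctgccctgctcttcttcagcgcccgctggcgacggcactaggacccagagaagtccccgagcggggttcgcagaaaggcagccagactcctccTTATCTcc
Epha2: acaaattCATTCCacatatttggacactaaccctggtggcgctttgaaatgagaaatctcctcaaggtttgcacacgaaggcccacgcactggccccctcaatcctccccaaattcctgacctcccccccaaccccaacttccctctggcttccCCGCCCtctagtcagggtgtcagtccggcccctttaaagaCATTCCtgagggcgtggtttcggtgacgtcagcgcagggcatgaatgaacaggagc
The Ephb4 window held 4 GC boxes and no other match, and the Efnb2 window 3 GC boxes, a TATA box and a TEAD site. The Epha2 window held 1 GC box and 2 TEAD sites, and the Epha3 window 1 GATA site, 1 TEAD site and no GC box. A GC box was found in 32.7% of 32841 RefSeq windows of this length, a TATA box in 12.4%, the ETS site in 6.91%, a GATA site in 9.99%, an AP-1 site in 4.46% and a TEAD site in 12.6%. Of the 37 members, 33 had an entry, and a GC box stood before 6 of the 12 genes called higher that had one and before all 3 genes called lower, and before 14 of the other 18 members. The window of Robo4 held none of the 6 motifs and 2 CpG dinucleotides, against 12 for Ephb4, 27 for Efnb2 and a median of 6 over all windows. A match is a description of the letters only.

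Of the B-class ephrins Efnb1 and Efnb2 rose, and the A-class ephrins did not pass the test. Efnb2, the arterial ligand that EphB4 binds, lies at chr8:8617235-8661242 on the minus strand. It had 102, 58.5, 135 and 62.0 CPM in QZ1-hi and 32.8, 33.2, 39.2 and 23.2 CPM in QZ1-lo. The populations were apart and QZ1-hi replicates 1 and 3 were again the highest, with a log2 fold change of 1.48 (edgeR, SE 0.27, adjusted p = 0.00284). Efnb1, an X-linked ligand of EphB receptors at chrX:99136061-99149022, had 50.6, 33.4, 60.2 and 38.3 CPM in QZ1-hi and 15.0, 13.2, 23.8 and 12.8 CPM in QZ1-lo. For this gene the log2 fold change was 1.49 (edgeR, SE 0.24, adjusted p = 0.00153), with no overlap between the populations. Efnb3 was counted 0, 4, 7 and 17 times in QZ1-hi and 14, 1, 25 and 46 times in QZ1-lo, and did not pass (adjusted p = 0.626, edgeR). Of the 5 A-class ephrins, edgeR called 0, as did DESeq2 and limma-voom, and 1 (Efna1) had an unadjusted p under 0.05 (28.9% of all genes tested). Efna1, a ligand of EphA2 that vessels and epithelia make, was the most abundant of them per length, with a mean of 18.7 CPM in QZ1-hi (SD 5.95, n = 4) against 28.4 CPM in QZ1-lo (SD 5.66, n = 4). It did not pass, and the log2 fold change was -0.61 (edgeR, SE 0.24, adjusted p = 0.115), and with library size only it was called lower, at -1.04 (adjusted p = 0.0205), as it was with blocks, at -0.64 (adjusted p = 0.0170). Efna5 had nearly equal means, 5.41 ± 1.23 and 4.99 ± 1.16 CPM (SD, n = 4 each), with a sign that turned negative with library size only and without QZ1-hi replicate 3 or QZ1-lo replicate 4. Efna2, Efna3 and Efna4 were low, with population means between 0.353 and 2.04 CPM.

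**Figure D2:**
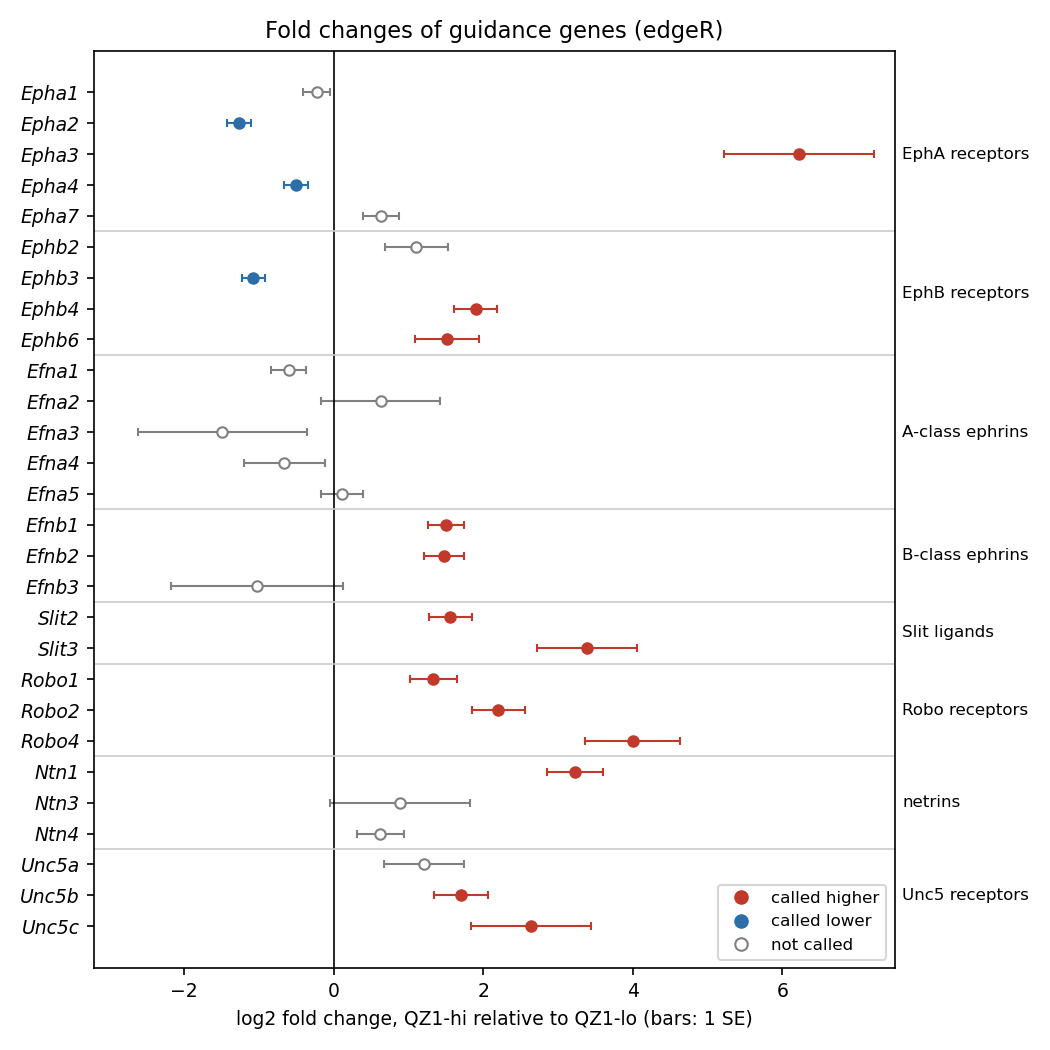
Log2 fold changes of the 28 tested guidance genes from edgeR, QZ1-hi relative to QZ1-lo, with bars of 1 SE, grouped by role. Filled points are called at an adjusted p under 0.05, and all Slit and Robo genes tested lie to the right of 0 while Epha2, Epha4 and Ephb3 lie to the left.

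Of 3 Slits and 4 Robo receptors, 2 and 3 passed the low-count filter, and all of these were called higher by edgeR. Over all genes tested, 9.88% were called higher and 8.21% lower. DESeq2 and limma-voom, run on the same filtered genes, gave the same numbers, with 0 lower at an unadjusted p under 0.05. Slit1, with 2 counts in QZ1-hi and 51 in QZ1-lo, was removed by the filter and is not among these. Robo4, which steadies endothelial barriers, lies at chr9:37401902-37414023 on the plus strand. It had 37.2, 19.9, 45.8 and 15.8 CPM in QZ1-hi and 2.18, 0.325, 4.13 and 0.696 CPM in QZ1-lo. This was the largest log2 fold change among the members with more than 3 counts in each population, 4.00 (SE 0.64, adjusted p = 0.00141, edgeR), and it lay between 3.66 and 4.73 when each library was left out in turn, the highest without QZ1-lo replicate 3. Robo2 had 3.18, 3.75, 4.51 and 4.71 CPM in QZ1-hi, and 0.835, 0.895, 0.868 and 0.900 CPM in QZ1-lo from 22 to 28 counts a library. The QZ1-lo libraries were almost level, and the log2 fold change was 2.20 (edgeR, SE 0.35, adjusted p = 0.00153). Robo1 had 7.46, 5.19, 8.21 and 7.33 CPM in QZ1-hi and 2.68, 4.15, 2.75 and 1.60 CPM in QZ1-lo. Its populations did not overlap, with a log2 fold change of 1.33 (edgeR, SE 0.32, adjusted p = 0.0135), which scaling by library size only took below the threshold (0.92, adjusted p = 0.0971). Robo3, at 38 counts in QZ1-hi and 27 in QZ1-lo, was not tested.

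Of the ligands, Slit3 (chr11:35121456-35708507, plus strand) had 31.5, 62.5, 86.3 and 42.9 CPM in QZ1-hi and 1.55, 6.39, 12.5 and 0.982 CPM in QZ1-lo. The QZ1-lo libraries spread widely, with replicate 3 the highest. The log2 fold change was 3.38 (edgeR, SE 0.67, adjusted p = 0.00476), and 4.24 without that library. Slit2, the ligand best known for repelling axons at the midline, had 17.8, 18.9, 13.1 and 9.48 CPM in QZ1-hi and 3.43, 5.37, 7.20 and 4.17 CPM in QZ1-lo. It rose less, by a log2 fold change of 1.56 (edgeR, SE 0.29, adjusted p = 0.00341), with no overlap. Slit1 was counted 0, 2, 0 and 0 times in QZ1-hi and 20, 13, 18 and 0 times in QZ1-lo. It did not pass the filter, and its summed, scaled ratio of QZ1-lo to QZ1-hi was 18.0 (95% exact interval 4.74 to 153, counting error only). It was tested and called lower when QZ1-lo replicate 4 was left out (adjusted p = 0.0448, edgeR), but not in the other fits that tested it.

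Among the netrins, Ntn1 rose, Ntn3 and Ntn4 did not pass and Ntn5 was not tested. Ntn1, the founding netrin, lies at chr11:68209364-68386826 on the minus strand. It had 42.5, 39.0, 98.9 and 39.6 CPM in QZ1-hi and 4.38, 4.56, 9.77 and 4.79 CPM in QZ1-lo. In each population replicate 3 stood well above the others, and the log2 fold change was 3.22 (edgeR, SE 0.38, adjusted p = 0.000343), 2.76 without QZ1-hi replicate 3 and 3.59 without QZ1-lo replicate 3. Ntn4, a netrin of basement membranes, had 10.6, 13.0, 20.5 and 13.3 CPM in QZ1-hi and 7.75, 8.42, 15.5 and 5.48 CPM in QZ1-lo. These overlapped, with replicate 3 the highest in both, and the log2 fold change was 0.62 (edgeR, SE 0.31, adjusted p = 0.221). Without QZ1-lo replicate 3, Ntn4 passed at 0.99 (adjusted p = 0.0300), and with blocks at 0.68 (adjusted p = 0.0279). Ntn3 had 83 counts in QZ1-hi and 60 in QZ1-lo (adjusted p = 0.600, edgeR), and Ntn5, with 20 and 39 counts, was not tested and overlaps Sec1 on the opposite strand over 23.4% of its exons. Per kilobase of exon, Ntn1 stood above Ntn4 in QZ1-hi, by ratios from 1.78 to 2.88, and below it in QZ1-lo, by ratios from 0.322 to 0.520.

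Of the Unc5 receptors, Unc5b and Unc5c were called higher. Unc5b (chr10:60762594-60831581, minus strand) had 23.1, 8.84, 17.0 and 7.27 CPM in QZ1-hi and 5.43, 3.99, 4.67 and 3.19 CPM in QZ1-lo. All QZ1-hi libraries were above all QZ1-lo libraries, with a log2 fold change of 1.70 (edgeR, SE 0.36, adjusted p = 0.00698). Unc5c had 86, 50, 6 and 14 counts in QZ1-hi and 12, 4, 13 and 4 counts in QZ1-lo. QZ1-hi replicate 3 fell within the QZ1-lo range, and the log2 fold change was 2.63 (edgeR, SE 0.80, adjusted p = 0.0433). That call was lost in 6 of 8 fits that left out one library (2.05 to 2.96, adjusted p from 0.0530 to 0.164), all but those without QZ1-hi replicate 3 or QZ1-hi replicate 4, and under 4 other settings, namely blocks of neighboring libraries (2.38, adjusted p = 0.0924), limma-voom (adjusted p = 0.113), no filter (adjusted p = 0.0510) and scaling by library size only (adjusted p = 0.0685). Unc5a, at a mean of 2.18 CPM in QZ1-hi (SD 0.512, n = 4) against 0.942 CPM in QZ1-lo (SD 0.532, n = 4), did not pass (log2 fold change 1.21, SE 0.53, adjusted p = 0.158, edgeR). Unc5d had a single count over all libraries.

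On a scale per length, the make-up of the family differed between the populations. Length here is that of the merged exons of all annotated transcripts of a gene. It was 25.4 kb for Slit2, 19.1 kb for Unc5c and 17.0 kb for Robo2, but 1.83 kb for Efna1. Genes with long merged exons may be understated, so levels of different genes compare only roughly. The EphA receptors summed to 49.1 ± 4.64 CPM per kilobase of exon (SD, n = 4) in QZ1-lo and 25.1 ± 4.49 (SD, n = 4) in QZ1-hi, and were the largest role in every QZ1-lo library. In QZ1-lo, Epha2 alone had 37.5 ± 3.52 CPM per kilobase (SD, n = 4), followed by Efna1 at 15.5 ± 3.09 and Epha4 at 7.49 ± 0.983. In QZ1-hi, Ephb4 (16.0 ± 6.25), Epha2 (15.6 ± 3.63), Efnb1 (13.2 ± 3.50), Efnb2 (13.0 ± 5.30), Efna1 (10.2 ± 3.25), Slit3 (9.19 ± 3.96) and Ntn1 (8.76 ± 4.67) each lay within 1 SD of the next in this order. B-class ephrins went from 9.63 ± 2.27 in QZ1-lo to 26.4 ± 8.74 in QZ1-hi, EphB receptors from 8.26 ± 1.69 to 19.2 ± 5.92, and netrins from 3.69 ± 1.40 to 12.9 ± 5.57 (summed CPM per kilobase, SD, n = 4 each). Slits and Robo receptors started lowest in QZ1-lo with Unc5 receptors, at 1.16 ± 0.974 and 0.601 ± 0.351, and reached 9.78 ± 3.95 and 6.34 ± 2.81 in QZ1-hi. Within each library, the ratio of Efnb2 to Ephb4 per kilobase was from 0.728 to 0.885 in QZ1-hi and from 0.945 to 1.53 in QZ1-lo, with no overlap. The ratio of Efnb1 to Ephb4 did overlap, at 0.719 to 1.07 in QZ1-hi and 0.988 to 1.21 in QZ1-lo. So did Epha2 to Efna1, at 0.971 to 2.29 and 1.87 to 3.03. The other ratios taken, Slit2 to Slit3, Robo1 to Robo4 and Ntn1 to Ntn4, did not overlap. All 37 genes together summed to 116 ± 27.7 CPM per kilobase in QZ1-hi and 92.2 ± 11.1 in QZ1-lo, with overlap. These sums are given without a test.

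**Figure D3:**
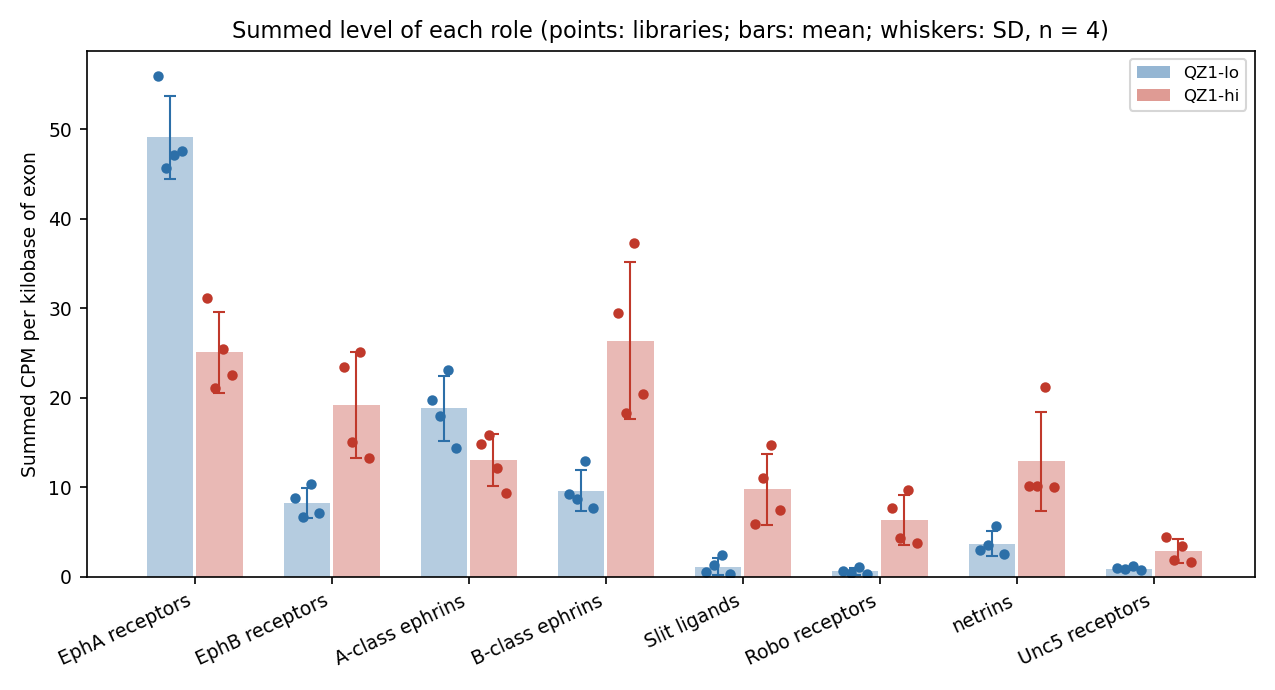
Summed TMM-scaled CPM per kilobase of exon for each role, with one point per library, bars at the mean of 4 libraries and whiskers of 1 SD. EphA receptors and A-class ephrins stand higher in QZ1-lo, at means of 49.1 and 18.8, and the means of the other roles stand higher in QZ1-hi.

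Genes that work with these receptors were counted in the same way. Over all genes tested, 18.1% were called (9.88% higher and 8.21% lower). Of 30 partners of Eph receptors and ephrins, all tested, 5 were called higher and 6 lower (36.7% called, edgeR), with a median log2 fold change of 0.14. With blocks 8 were higher and 5 lower, but with library size only 2 were higher and 7 lower. Numbers over all genes for these settings are given in the section on processing. Of 10 guanine nucleotide exchange factors in this list, grouped after their values were seen, 2 were called higher (Arhgef15 and Kalrn), 3 lower and 5 did not pass (Arhgef19, Vav2, Vav3, Tiam1 and Itsn1, with log2 fold changes of -0.32 to 0.82). Arhgef15, the vascular member, had a mean of 50.1 CPM in QZ1-hi (SD 7.71, n = 4) against 4.31 CPM in QZ1-lo (SD 1.14, n = 4), whereas Arhgef16 fell by 1.29, Arhgef5 by 0.89 and Ngef by 0.87 on the log2 scale (adjusted p = 0.00313, 0.00837 and 0.0320, edgeR). Of 4 Src family kinase genes, Fyn was called higher and Src lower, with log2 fold changes of 1.40 (SE 0.18, adjusted p = 0.000540, edgeR) and -0.91 (SE 0.17, adjusted p = 0.00310, edgeR). The other kinase genes, Yes1 and Lyn, did not pass (0.36 and 0.51). Nck1 and Rgs3 were called higher, and Grip1 and Pick1 lower. Scaling by library size only ended the calls on Kalrn, Nck1 and Rgs3 (adjusted p = 0.295, 0.517 and 0.222, edgeR). With one library removed, the calls on Grip1 and Pick1 were each lost in 7 of 8 fits. The call on Ngef was lost in 5 of these fits (adjusted p up to 0.0820, edgeR) and that on Nck1 in 3. Blocks also ended the calls on Grip1 and Pick1 (adjusted p = 0.0619 and 0.0544, edgeR), as did limma-voom (adjusted p = 0.101 and 0.0553).

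Of 18 partners of Robo receptors, 33.3% were called, beside 18.1% of all genes tested. The kinase gene Abl1 was the 1 called higher (0.39, SE 0.12, adjusted p = 0.0408, edgeR), and 5 were called lower, namely Enah, Flrt3, Sdc1, Pak1 and Usp33. The call on Abl1 was lost in 7 of 8 fits with one library removed, and with library size only its sign turned (-0.0485, adjusted p = 0.901, edgeR), which left 0 higher and 7 lower in this list. With one library removed, the calls on Usp33, Sdc1 and Pak1 were lost in 6, 5 and 4 of 8 fits (adjusted p up to 0.121, 0.0782 and 0.0831, edgeR). Those on Enah and Flrt3 were lost in 0. The GTPase-activating genes Srgap1, Srgap2 and Srgap3, whose proteins bind Robo directly, did not pass, with log2 fold changes of 0.51, 0.04 and 0.17. The median of this list was -0.10. Of 17 netrin receptors and partners, 4 were not tested, and 3 were called higher and 1 lower (30.8% of those tested), with a median of 0.52. With blocks 6 were higher and 1 lower, but with library size only 1 and 1. Dcc, the attractive netrin receptor, had 0 counts in all libraries, and Neo1, its relative, had a mean of 27.3 CPM in QZ1-hi (SD 15.4, n = 4) against 14.8 CPM in QZ1-lo (SD 3.65, n = 4), which did not pass (log2 fold change 0.88, SE 0.33, adjusted p = 0.0946, edgeR). Flrt2, whose product is a ligand of Unc5 receptors, had 21.4, 67.4, 15.3 and 20.0 CPM in QZ1-hi and 4.35, 5.70, 6.04 and 2.01 CPM in QZ1-lo. It rose by 2.77 on the log2 scale (SE 0.49, adjusted p = 0.00266, edgeR), and by 2.04 without QZ1-hi replicate 2 (adjusted p = 0.00260), the library that also stood highest for the mesothelial marker Upk3b (126 CPM, against 16.4 to 26.4 CPM in the rest of that population). Ntng2 rose by 1.67 and Rgma by 0.95, both without a call with library size only (adjusted p = 0.0630 and 0.278, edgeR), while Adora2b fell by 1.32. The calls on Ntng2 and Rgma were also lost in 2 of 8 fits each with one library removed.

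Markers of several cell types moved between the populations together with the guidance genes. Their counts stand beside 9.88% of all genes tested called higher and 8.21% called lower. All 12 endothelial markers were called higher and 0 lower, and the list summed to 1997, 1159, 2639 and 1129 CPM in QZ1-hi and 120, 160, 357 and 98.8 CPM in QZ1-lo, with Cdh5 the most abundant. QZ1-lo replicate 3 held the most endothelial RNA of the QZ1-lo libraries, and also the most Robo4, Slit3, Ephb4, Efnb1, Efnb2, Ntn1, Slit2 and Unc5c. The other guidance genes called higher differed from this. Among the QZ1-lo libraries, Unc5b, Ephb6 and Epha3 were highest in replicate 1, Robo1 in replicate 2 and Robo2 in replicate 4. Of 8 arterial markers, 4 were called higher (6 by DESeq2, by limma-voom and with blocks, and 5 higher with 1 lower with library size only), and of 8 venous markers 7, with Ackr1 not tested and Vwf held by the endothelial list too. Fibroblast markers were called higher for 8 of 10, with sums of 3321, 4439, 4325 and 2648 CPM in QZ1-hi and 1121, 879, 861 and 620 CPM in QZ1-lo. The QZ1-lo sum was highest in replicate 1, where Fn1 made up 931 CPM of it. The collagen genes Col1a1 (91.6 CPM), Col1a2 (55.7 CPM) and Col3a1 (136 CPM) and Lum (6.33 CPM) were instead highest in QZ1-lo replicate 3, the library with the most endothelial RNA, and Dcn and Pdgfra in QZ1-lo replicate 2. Of 9 pericyte markers 4 were called higher, with QZ1-lo sums of 14.6, 17.2, 29.1 and 11.0 CPM, again highest in replicate 3, and of 8 smooth muscle markers, 7 of them tested, 3 higher and 1 lower. In the other direction, all 8 epithelial markers, all 6 club cell markers and all 7 ciliated cell markers were called lower, the epithelial list at 1184, 1010, 782 and 739 CPM in QZ1-hi and 2610, 2181, 2565 and 2003 CPM in QZ1-lo. The alveolar lists were mixed, with 2 of 8 type 2 markers higher (4 higher and 1 lower with blocks, 0 higher and 1 lower with library size only), and 2 of 8 type 1 markers higher and 4 lower. For type 1 markers, DESeq2, limma-voom and blocks each gave 2 higher and 5 lower, and library size only gave 1 higher and 5 lower. Of 10 leukocyte markers, which the gates should remove, 9 were tested and 0 called by edgeR, DESeq2 or limma-voom, with 0 at an unadjusted p under 0.05. With library size only 1 was called lower, and with blocks 4 were called higher. The list summed to 3198, 3697, 3319 and 6947 CPM in QZ1-hi and 2530, 3044, 2281 and 4569 CPM in QZ1-lo, higher in QZ1-hi at each replicate number. Ptprc, which encodes CD45, was nonetheless at 131 CPM in QZ1-hi and 125 CPM in QZ1-lo, and Lyz2, which type 2 cells also express, was the most abundant of the list. The part of each cell type in the guidance gene differences was not tested.

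**Figure D4:**
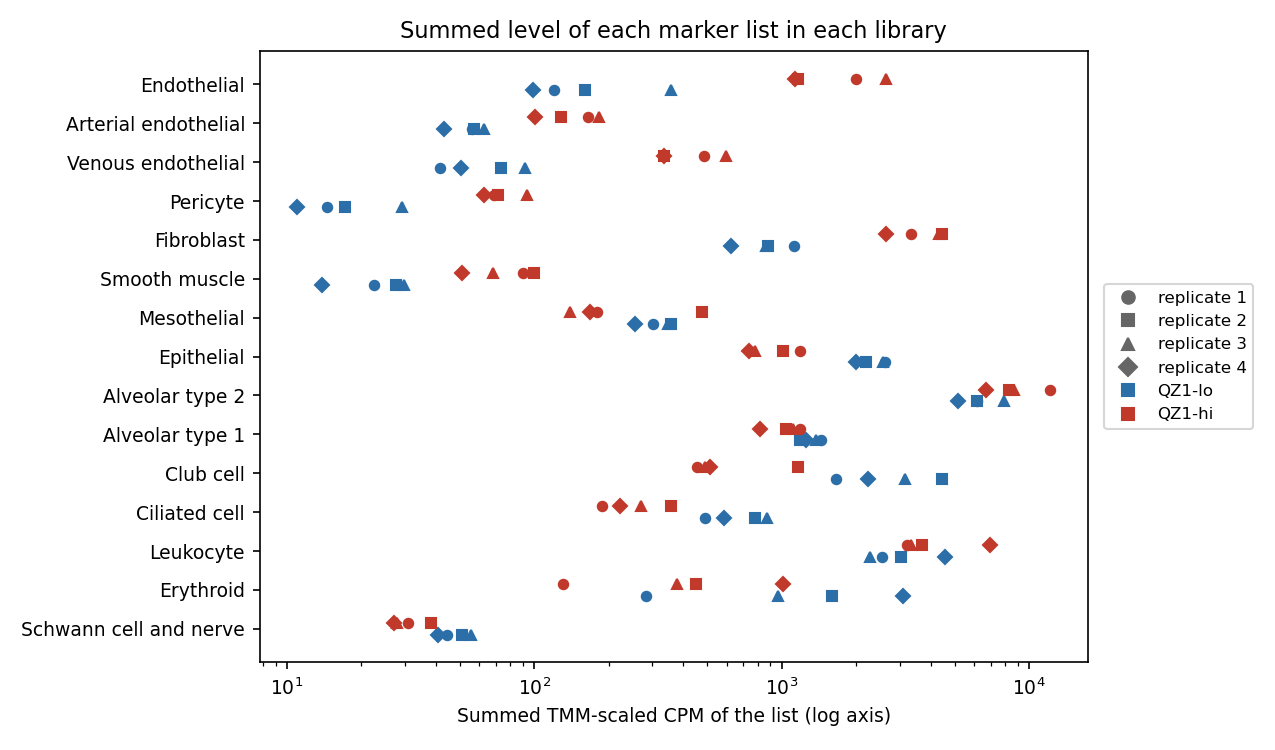
Summed TMM-scaled CPM of each marker list on a log axis, with one point per library, QZ1-lo in blue and QZ1-hi in red, and a symbol for each replicate number. Endothelial, pericyte and fibroblast sums lie higher in every QZ1-hi library than in any QZ1-lo library, and epithelial, club and ciliated sums lower, while leukocyte and erythroid sums overlap.

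The 4 QZ1-hi libraries also differed among themselves, and not alike for all the genes called higher. Relative to the mean of the QZ1-hi libraries, the endothelial marker sum was 1.15, 0.669, 1.52 and 0.652 in replicates 1 to 4. Robo4 (1.25, 0.671, 1.54 and 0.532), Ephb4 (1.28, 0.677, 1.40 and 0.650), Efnb2 (1.14, 0.654, 1.51 and 0.694), Efnb1 (1.11, 0.733, 1.32 and 0.840) and Unc5b (1.65, 0.629, 1.21 and 0.517) had the same 2 libraries above the mean. The fibroblast marker sum was 0.902, 1.21, 1.17 and 0.719, and Slit3 (0.564, 1.12, 1.55 and 0.769) had the same 2 libraries above the mean as that sum. Slit2 was above the mean in replicates 1 and 2, Robo2 and Epha3 in replicates 3 and 4, Robo1 in all but replicate 2, and Ntn1 in replicate 3 alone. Ephb6 and Unc5c were lowest in replicate 3, at 0.413 and 0.190. With 4 libraries these orders are a description.

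**Figure D5:**
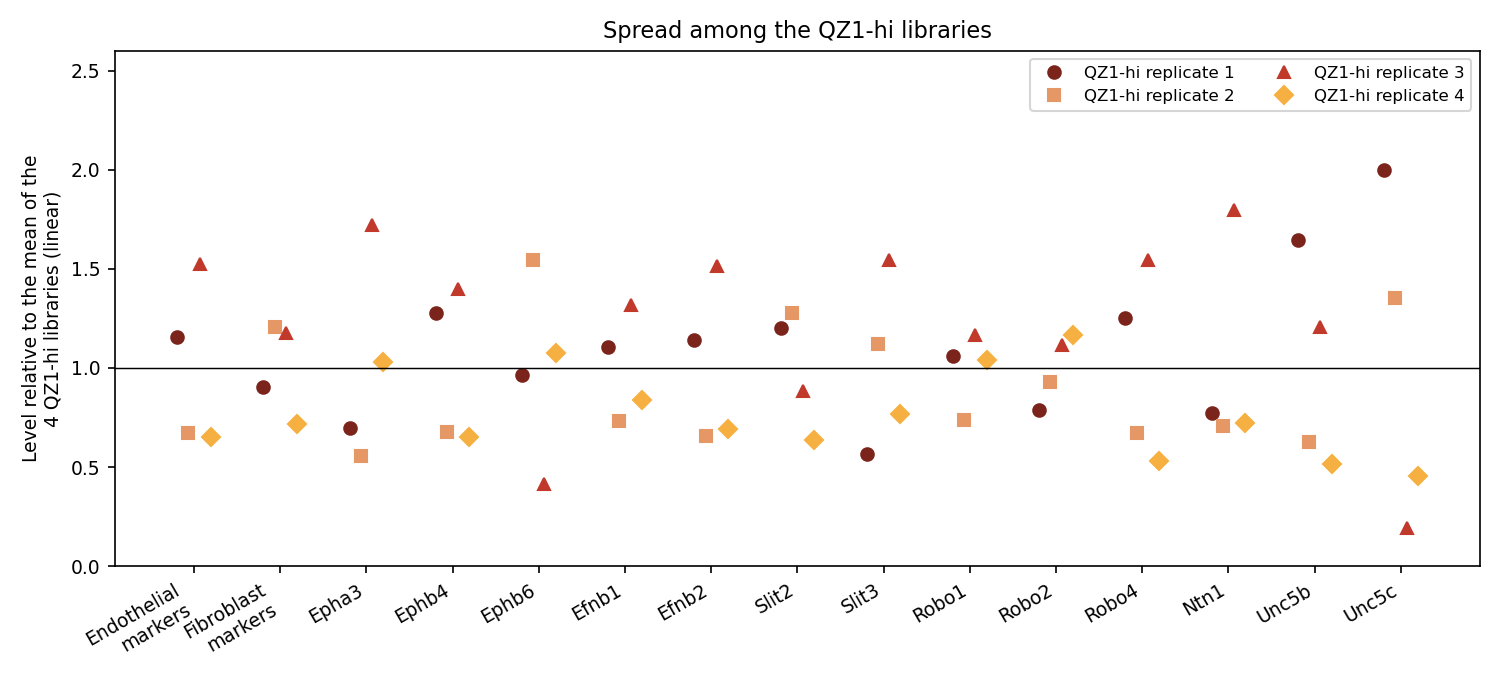
Level of the endothelial and fibroblast marker sums and of the 13 guidance genes called higher in each QZ1-hi library, on a linear axis relative to the mean of the 4 QZ1-hi libraries, which is the line at 1. Robo4, Ephb4, Efnb1, Efnb2 and Unc5b have replicates 1 and 3 above the line, as does the endothelial sum, and Slit3 has replicates 2 and 3 above it.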

How the data were processed

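RNA of both sorted populations was sequenced in 8 libraries. Per the authors' methods, a stranded SMARTer total RNA kit and an Illumina NextSeq were used, and features were counted with Rsubread. The deposited values are raw read counts, not normalized, for 27179 Entrez Gene identifiers, of which 25275 were given a symbol from RefSeq. The submitters' processing notes name the build mm10 and DESeq2. The aligner, annotation version and strand setting are not given in the sources used here. Without molecular identifiers, several reads can stem from 1 molecule, so intervals and floors cover counting error alone.

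Counts were scaled by TMM, filtered with filterByExpr (minimum count 10, minimum total 15) and compared by the quasi-likelihood test in edgeR 4.0.16 (R 4.3.3), with p-values adjusted over 15583 genes at a threshold of 0.05. SEs were taken from the fold change and the square root of its F statistic. Exon lengths came from GENCODE M21, with the exons of all transcripts of a gene merged. Positions and upstream sequences came from RefSeq for GRCm38.p6, the same build as mm10. For the 16 genes called, at most 0.71% of the exons overlap a gene on the other strand and at most 0.40% of the 50-base stretches occur in another gene.

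Alternatives were DESeq2 1.42.0, limma-voom 3.58.1 with sample quality weights, DESeq2 size factors or library size only in edgeR, robust shrinkage, no filter, a minimum of 10 counts per library, removal of mitochondrial and named ribosomal RNA genes, a threshold of 0.01, the removal of 1 library at a time and, added after the data were seen, a replicate block. The blocks were the 4 pairs of neighboring library numbers in the labels, 1 QZ1-hi and 1 QZ1-lo each, which no source used here says to share a mouse. Over 15583 genes, deviations of log2 CPM from the population mean correlated within these pairs at r from 0.144 to 0.235, against -0.160 to 0.0182 for other combinations, and all 8 libraries correlated best with their neighbor (genes are not independent replicates). This is a hint from the data, not from the design, and the fit without blocks was kept as the main one. In simulated data with 15583 genes, edgeR called 43 of 100 genes changed 2-fold, 79 of 100 changed 4-fold and 3 unchanged genes. In the same order DESeq2 called 55, 85 and 45, and limma-voom 41, 75 and 2. The simulation used the dispersions that edgeR had estimated. The series' design text calls the 4 libraries of a population biological replicates, without naming the mice. Members, partner lists and marker lists were chosen with earlier results of these data known, and the upstream motifs and the genes whose sequence is shown after their values were seen. The text could name any member and any gene of the lists. Of 186 listed genes, 1 (Hbb-bt) could not be matched. The other experiments of the study were not analysed here.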

Additional observations from a re-analysis of the deposited data

Results flagged for a closer look

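For 3 results a library stood far from the other 3 of its population by Dixon's test at the 95% level, out of 56 groups of 4 libraries examined, where chance gives about 1 in 20. Ntn1 was at 98.9 CPM in QZ1-hi replicate 3, against 39.0 to 42.5 CPM in the other QZ1-hi libraries. Ntn1 was also at 9.77 CPM in QZ1-lo replicate 3, where the rest of that population had 4.38 to 4.79 CPM. These libraries have neighboring numbers in the labels, and the sources used here do not say whether they share a mouse. Epha3 was at 0.0894 CPM in QZ1-lo replicate 1, which is 3 counts, with 0 counts in the other QZ1-lo libraries. With the others all at 0, any count here would have been flagged, so this flag carries no information.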

How the results depend on the processing

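Of the 16 guidance genes called, 13 kept their call with library size only, 14 with limma-voom, and 16 with DESeq2, DESeq2 size factors, robust shrinkage and the removal of mitochondrial and ribosomal RNA genes. With no filter the call on Unc5c was lost, and with at least 10 counts in every library Epha3, Robo4 and Unc5c were not tested. Over all genes, the numbers called higher and lower were 1540 and 1280 in the reported fit, 882 and 2509 with library size only, and 902 and 665 at an adjusted p under 0.01. When each library was left out in turn, 1136 to 1506 genes were called higher and 938 to 1201 lower, and 11 to 13 guidance genes were called higher and 2 to 3 lower. Signs changed for 2 members that were never called: Efna2 was at 0.63 in the reported fit, -0.0555 with limma-voom, -0.0016 with library size only and from -0.24 (without QZ1-hi replicate 2) to 0.96 with one library left out, and Efna5 was at 0.11, -0.39 with library size only and from -0.0382 (without QZ1-lo replicate 4; -0.0218 without QZ1-hi replicate 3) to 0.26 with one library left out. With library size only, the median log2 fold change turned to -0.33 for the Eph and ephrin partners, -0.0379 for alveolar type 2 markers and -0.49 for leukocyte markers, beside a shift of -0.47 in the median of all genes. Without QZ1-lo replicate 3, a setting added for the list medians after the data were seen, no list median changed sign. With the replicate block of neighboring library numbers, also chosen after the data were seen, 2004 genes were called higher and 1636 lower, and 14 and 4 of the guidance genes: Efna1, Epha7 and Ntn4 gained a call, Unc5c lost its call, and no other call on a guidance gene changed. The low-count filter left 9 members without a test in the reported fit.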

Other observations

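Marker lists of other cells were measured as well, beside 9.88% of all genes tested called higher and 8.21% called lower. Mesothelial markers were called higher for 5 of 6 genes and lower for Krt19, which other epithelia also make. All 5 higher markers peaked in QZ1-hi replicate 2. By DESeq2 and by limma-voom, 4 were called higher and 1 lower. The list summed to 179, 476, 139 and 168 CPM in QZ1-hi and 302, 355, 346 and 256 CPM in QZ1-lo, with Krt19 the most abundant, at 117, 185, 97.4 and 95.7 CPM in QZ1-hi and 286, 316, 335 and 250 CPM in QZ1-lo. Red cell markers were lower on average in QZ1-hi, with 131, 449, 376 and 1008 CPM against 282, 1590, 961 and 3101 CPM, but the populations overlapped, and 0 of 5 genes were called by edgeR, DESeq2 or limma-voom, with 3 at an unadjusted p under 0.05. With library size only 4 of the 5 were called lower, and with neighboring libraries as blocks also 4. In both populations the sum was lowest in replicate 1 and highest in replicate 4, and it was lower in QZ1-hi at each replicate number, although the sources used here do not tie these numbers to a mouse. Of 8 Schwann cell and nerve markers, 4 had too few counts to be tested and 1 was called lower (Mbp, 25.7 CPM in QZ1-hi and 44.2 CPM in QZ1-lo).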
